A study of Mus musculus with 768 samples.

Results

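Prox1, the prospero homeobox gene 1 of the mouse, was followed through single cells of the dentate gyrus that were sorted for a Nestin:GFP reporter. It is 1 of 32679 genes in the deposited count table. It was chosen because earlier values from these same cells showed it in oligodendrocytes and neuroblasts, so its levels across cell types are given as a description with no test. Levels are read counts scaled to 1000000 counts per well (CPM), over wells with at least 50000 counts and at least 1000 genes. Of 768 wells, 675 passed, and 282 of these had a Prox1 count, with 76781 Prox1 counts in all.

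PROX1 is a homeodomain transcription factor related to Drosophila prospero. In the dentate gyrus it is known from the granule neuron lineage, where it is switched on in intermediate progenitors and is needed for granule neuron identity and survival. Outside neurons it is the best known switch gene of lymphatic endothelium, it marks interneurons born in the caudal ganglionic eminence, and work in mice has also described it in the differentiation of the oligodendrocyte lineage. In the GENCODE M21 annotation of GRCm38, the assembly also called mm10, the protein-coding gene Prox1 (ENSMUSG00000010175.13) lies at chr1:190118035-190170714 on the minus strand. The antisense gene Prox1os (ENSMUSG00000079045.3) lies at chr1:190170296-190217276 on the plus strand. Its exon 1 shares 133 bases, chr1:190170296-190170428, with exon 1 of the transcripts Prox1-202 and Prox1-203. A further antisense gene, Gm28172, lies inside Prox1 at chr1:190168670-190169633.

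All mice were Nestin:GFP males of 2 months, a reporter line in which regulatory sequence of the stem cell gene Nes drives green fluorescent protein. Mice 2, 4, 6 and 8 had received a mimic of the microRNA miR-132, and mice 1, 3, 5 and 7 a negative control oligonucleotide. Both groups received 150 pmol in a mix of 3 µl with lipofectamine 2000 each week for 5 weeks, and the series text sets the letters AD before the tissue without spelling them out. Sorting took place on 17 April for mice 1 to 4 and on 19 April for mice 5 to 8, with 2 mice of each treatment per date. Per the labels 94 cells were sorted from each mouse. Each has 96 wells in the table, of which 75 to 92 passed. Cells were made into Smart-seq2 libraries, which are full length, carry no molecular identifiers and mark no strand.

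The labels give 2 maps of wells to mice. In the map used here each well belongs to the mouse of the samples whose descriptions list it. The other map goes by sample titles, each of which is a well name. The maps give the same mouse for 96 of 768 wells and the same treatment for 384. Levels by cell class over wells do not depend on the map, whereas every value per mouse or treatment does, and values under the title map stand beside the treatment comparisons of Prox1 in oligodendrocyte-like and neuroblast-like wells. Kept wells had a median of 646537 counts and 2741 genes. A set of 16 wells, 2 per mouse, held over 6000 genes each and was kept out of the classes, which left 659 wells. Classes were clusters made without Prox1 and Prox1os and named from marker genes as "like" a cell type.

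The names neuroblast and oligodendrocyte rest on marker lists, and the markers given next belong to those lists, so their values describe the classes and do not test the names. Dcx, a microtubule protein of migrating neurons, and Neurod1, a transcription factor of the granule lineage, each had a count in 33 of 38 neuroblast-like wells (86.8%). In oligodendrocyte-like wells each had a count in 1 of 301. The summed level of 10 oligodendrocyte markers averaged 76.6 CPM in neuroblast-like and 91303 CPM in oligodendrocyte-like wells. The summed level of 10 neuroblast markers averaged 5828 CPM in neuroblast-like wells and 69.7 CPM in oligodendrocyte-like wells, where the median was 0. The name oligodendrocyte precursor covers wells of mixed stage. The 9 precursor markers summed to 14834 CPM there, and the 10 markers of mature oligodendrocytes to a median of 1178 and a mean of 13285 CPM.

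The microRNA copied by the mimic is shown because the treatment comparisons turn on it. Its mature sequence comes from RefSeq on GRCm38.p6, where it lies at chr11:75173723-75173744 on the plus strand. Capitals mark the seed, bases 2 to 8, through which a microRNA pairs with its targets.
mmu-miR-132-3p: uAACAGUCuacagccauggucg
The letters that pair with this seed were searched on the sense strand of the 3 annotated Prox1 transcripts. The site GACTGTTA of 8 letters, and its parts GACTGTT and ACTGTTA of 7 letters, were at 0 matches in each transcript. The longest Prox1 3′ UTR has 5185 bases. Among 919 genes whose longest 3′ UTR was within 20% of that length, 8.60% held GACTGTTA, 33.6% held GACTGTT and 33.5% held ACTGTTA. The longer site contains both shorter ones, so the shares overlap. The search says only that these letters are not in the annotated transcripts.

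Prox1 was highest in neuroblast-like wells and stood next in oligodendrocyte-like wells. Averaged over wells, the level was 1146 CPM in the 38 neuroblast-like wells and 229 CPM in the 301 oligodendrocyte-like wells. Precursor-like wells followed with 73.8 CPM over 18 wells, and astrocyte-like wells with 35.4 CPM over 95 wells. Endothelial-like wells (107) averaged 0.179 CPM and pericyte-like wells (84) 0.186 CPM, and none of the 16 fibroblast-like wells had a count. Taken per mouse, the mean over wells was 1081 ± 602 CPM in neuroblast-like and 223 ± 47.9 CPM in oligodendrocyte-like wells (SD, n = 8 mice each). The lowest mouse had 351 CPM in neuroblast-like wells, and the highest mouse had 302 CPM in oligodendrocyte-like wells. Prox1 was chosen for its level in these classes, so this gap is a description only.

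**Figure D1:**
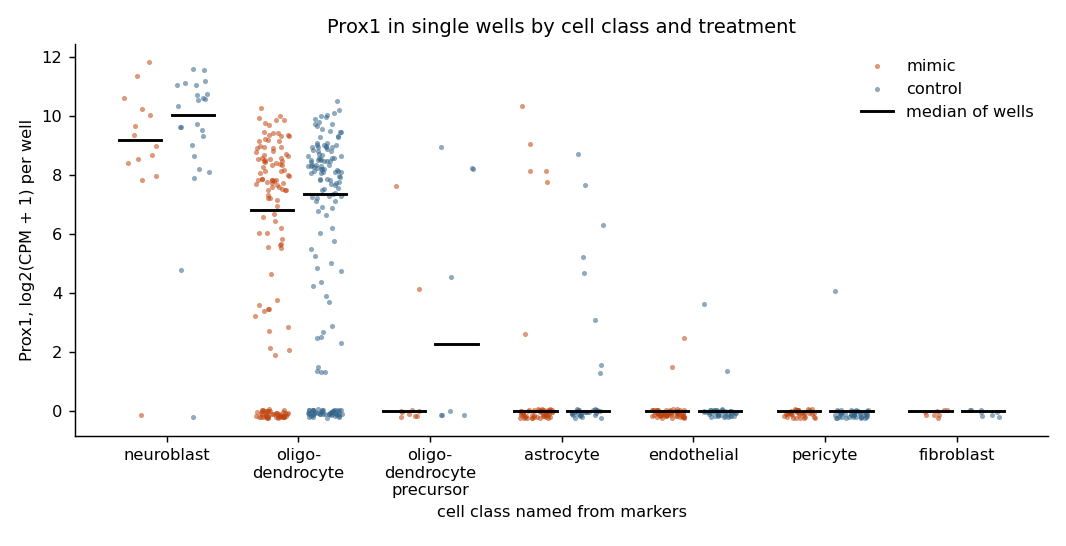
Prox1 in each of the 659 single-cell wells as log2(CPM + 1), by cell class, with mimic wells left of control wells and a black bar at the median of wells. Wells with no count are spread around and just under 0 so that they can be seen. Most neuroblast-like wells lie above most oligodendrocyte-like wells, which fall into a group at 0 and a broad group above it.

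The order of neighbouring classes held in some steps and not in others. The neuroblast-like level was above the oligodendrocyte-like level in 8 of 8 mice, by 858 ± 602 CPM (SD, n = 8). Oligodendrocyte-like wells were above precursor-like wells in 6 of 6 mice that had at least 2 precursor-like wells, by 157 ± 82.4 CPM (SD, n = 6). Precursor-like wells were above astrocyte-like wells in 4 of these 6 mice, by 38.0 ± 98.1 CPM, a difference smaller than its spread. Astrocyte-like wells were above endothelial-like wells in 5 of 8 mice, by 27.8 ± 42.8 CPM. Endothelial-like and pericyte-like levels could not be ordered, with the first higher in 3 of 8 mice.

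Detection followed the same order from neuroblast-like down to astrocyte-like wells, with lower shares in the other classes. A Prox1 count was found in 36 of 38 neuroblast-like wells (94.7%, exact 95% binomial interval 82.3 to 99.4%). It was found in 205 of 301 oligodendrocyte-like wells (68.1%, interval 62.5 to 73.3%) and in 6 of 18 precursor-like wells (33.3%, interval 13.3 to 59.0%). The share was 14.7% in astrocyte-like wells (14 of 95, interval 8.30 to 23.5%). In endothelial-like wells it was 3.74% (4 of 107), with at most 7 counts in a well. A single pericyte-like well of 84 had 9 counts. The median depth was 705409 counts in oligodendrocyte-like and 574174 in endothelial-like wells. Whether the few counts in vascular wells were stray reads or low expression was not tested. For fibroblast-like wells the exact interval of 0 of 16 reaches 20.6%, and the rule of 3 counts over the total allows a share of up to 18.75%. Intervals and limits treat wells as independent and cover counting error over wells only, not the spread between mice. The oligodendrocyte-like share ran from 59.1% in control mouse 7 to 77.4% in control mouse 1, which is wider than its interval.

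With every well thinned to 50000 counts, the share was 92.1% in neuroblast-like, 61.8% in oligodendrocyte-like and 33.3% in precursor-like wells. In astrocyte-like wells it was 9.47% (9 wells, against 14 with all counts) and in endothelial-like wells 0.935% (1 well, against 4). It was 1.19% in pericyte-like wells and 0% in fibroblast-like wells.

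**Figure D2:**
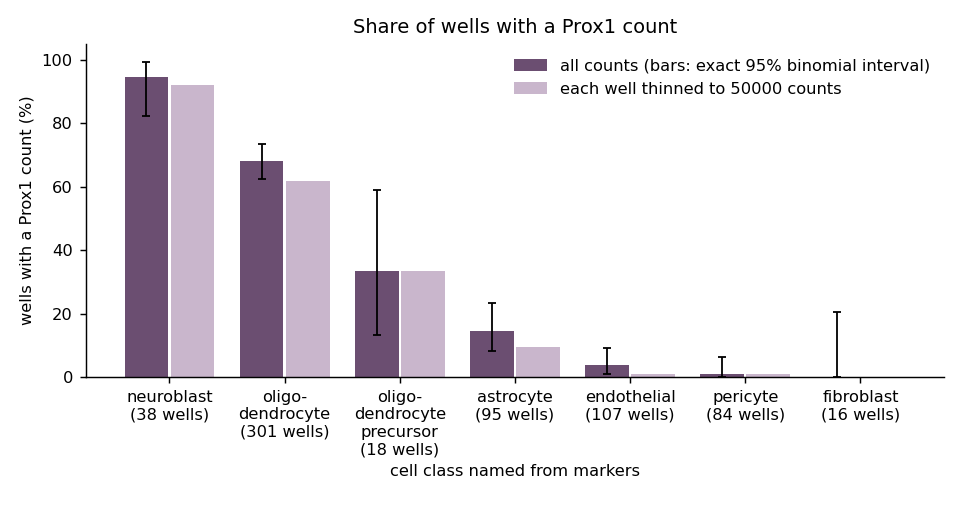
Percent of wells with a Prox1 count in each cell class, with all counts (dark bars, exact 95% binomial interval) and with each well thinned to 50000 counts (light bars). The oligodendrocyte-like share is 68.1% with all counts and 61.8% after thinning, and the 2 vascular classes stay under 5%.

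Genes that set lymphatic endothelium apart were at or near 0 in endothelial-like wells. Lyve1, a hyaluronan receptor of lymphatic vessels, had a count in 1 of 107 endothelial-like wells, and Pdpn, which encodes the lymphatic surface protein podoplanin, in 0. Flt4, the receptor of VEGF-C that some blood vessels also carry, had a count in 64.5% and Sox18, a transcription factor of endothelium in general, in 84.1%. Of 7 measured lymphatic genes, 5 had their highest class mean in endothelial-like wells.

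Within the astrocyte-like wells Prox1 was not even. The cluster of 32 wells with more Hopx, a gene of dentate stem cells and of some astrocytes, had a Prox1 count in 8 wells (25%) and a mean of 71.8 CPM. The other 63 wells had one in 6 wells (9.52%) and a mean of 16.9 CPM. Taken per mouse, the means were 43.8 ± 85.3 CPM (SD, n = 7) and 21.5 ± 36.4 CPM (SD, n = 8), each SD larger than its mean. The split itself depended on the setting. The wells formed 1 cluster of 95 at Leiden resolution 0.5, with at most 15% mitochondrial counts and with the many-gene wells included. They stayed apart at resolution 2 and with at least 200000 counts per well. Mimic mouse 2 held 6 of the 14 astrocyte-like wells with a count, at 118 CPM over its 22 wells. Mimic mice 4, 6 and 8 had no Prox1 count in 8, 12 and 16 astrocyte-like wells.

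Oligodendrocyte-like wells differed widely among themselves. Prox1 was at 0 in 96 of the 301 wells, above 0 to 10 CPM in 18, above 10 to 100 CPM in 26, above 100 to 300 CPM in 66, above 300 to 1000 CPM in 87 and above 1000 CPM in 8. The highest well had 1477 CPM. The same wells carried the transcription factors that build an oligodendrocyte in shares both above and below that of Prox1. Sox10, which directs the lineage from precursor to myelin, had a count in 98.0% of them and Myrf, which switches on myelin genes, in 96.0%. Nkx6-2 had one in 80.1%, Olig2, which specifies the lineage, in 62.5% and Nkx2-2, a homeobox gene of differentiating precursors, in 39.5%. Of 20 listed lineage factors, 8 had a count in more wells than Prox1 and 12 in fewer. Counts were not corrected for transcript length, so these shares rank no gene's level.

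Some lineage factors had the opposite order to Prox1 across these classes. Sox6, which holds precursors back from differentiation, averaged 0.0447 CPM in oligodendrocyte-like and 464 CPM in precursor-like wells. Hes5, a Notch target, averaged 0.0115 CPM in oligodendrocyte-like and 177 CPM in precursor-like wells. Prox1 was higher in oligodendrocyte-like wells, as were Myrf (238 CPM, against 72.2 CPM in precursor-like wells), Nkx6-2 (335 and 18.7 CPM), St18 (195 and 11.2 CPM) and Zfp536 (288 and 57.2 CPM). These are class means over wells and carry no test. Of the 20 factors, 9 had their highest class mean in precursor-like wells, 4 in oligodendrocyte-like, 3 in astrocyte-like and 3 in neuroblast-like wells.

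No gene tracked Prox1 closely from oligodendrocyte to oligodendrocyte. Spearman's rho was taken over 301 wells for the 3257 genes found in at least 30% of them. The values with Prox1 ran from -0.19 to 0.21. The highest were D1Ertd622e (0.21), Plin3 (0.19), which coats lipid droplets, Cyp2j6 (0.19), Cyb5b (0.18) and Plxnb3 (0.18), a semaphorin receptor of the lineage. The lowest were Mrps18c (-0.19), Tmem30a (-0.17), Tprkb (-0.17), Ap3b1 (-0.16) and Ccnl1 (-0.15). The 16 myelin genes had a median rho of 0.01, from -0.08 for Opalin to 0.15 for Mobp. The 12 lineage factors that passed the share had a median rho of 0.02. Wells share mice and depth, and rho with the total count of a well was -0.04 and with its number of genes 0.12. In sparse counts values of this size are no finding.

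Oligodendrocyte-like wells formed 2 clusters that differed in immediate early genes, which respond within minutes to stimulation or to tissue handling. Fos averaged 4633 CPM in a cluster of 88 wells and 216 CPM in the other 213 wells, while the myelin gene Mbp averaged 15205 and 14675 CPM. Pooled over treatments, Prox1 did not separate them. Summed per mouse, it was 204 ± 109 CPM in the wells with high immediate early genes and 232 ± 58.6 CPM in the others (SD, n = 7 mice, since control mouse 7 had no well in the first cluster). The level ran from 65.4 to 375 CPM in the first cluster and from 147 to 335 CPM in the second. It was higher in the first cluster in 3 of 7 mice, with a mean log2 difference of -0.35 ± 0.97 (SD) on the log2(CPM + 1) scale. An exact sign-flip test within mice, two-sided, gave p = 0.359, with 0.0156 as the smallest it can give. That test pooled the treatments. The higher mice were mimic mice 4, 6 and 8, with log2 differences of 0.86, 0.68 and 0.13. Control mice 1, 3 and 5 (-0.27, -1.06 and -1.15) and mimic mouse 2 (-1.66) were lower. Whether the direction differed by treatment was not tested.

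**Figure D3:**
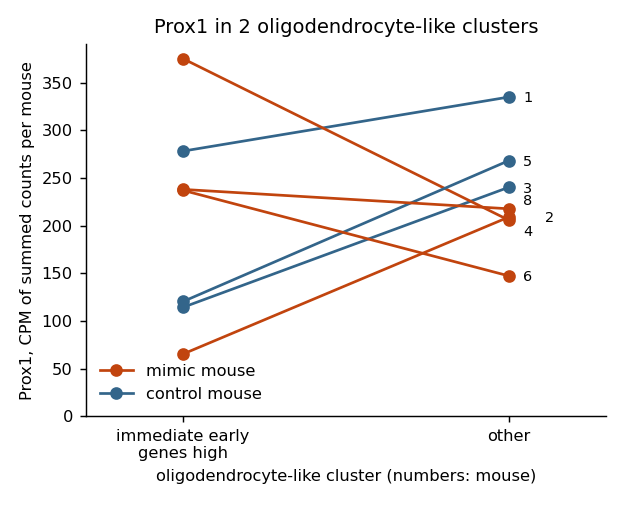
Prox1 as CPM of summed counts per mouse in the oligodendrocyte-like cluster with high immediate early genes (left) and in the other cluster (right), each line a mouse with its number. Lines run up in 4 mice and down in 3, with 375 CPM as the highest and 65.4 CPM as the lowest value in the left cluster.

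Nearly every neuroblast-like well carried Prox1. It was above 1000 CPM in 17 of 38 wells, above 300 to 1000 CPM in 13, above 100 to 300 CPM in 5 and above 10 to 100 CPM in 1. The highest well had 3677 CPM. The remaining 2 wells had no count, and they differed in their other genes. A well of mimic mouse 2 had 189 CPM of Neurod1 and 1889 CPM of Calb2, the calcium buffer calretinin of immature granule neurons. A well of control mouse 5 had no Neurod1 and carried genes of inhibitory interneurons, with 726 CPM of Gad1, 786 CPM of Gad2 and 1566 CPM of Dlx1. Both wells were singled out after their values were seen. Gad1 had a count in 2 of the 38 wells. Some wells also carried a gene of dividing cells, Mki67, picked after its values were seen. It had 3840 and 740 CPM in wells of mimic mouse 2 with 251 and 336 CPM of Prox1. Further wells, of control mice 1 and 3 and mimic mouse 8, carried it at 197 to 1600 CPM, with 26.5 to 519 CPM of Prox1. No well with more Prox1 had an Mki67 count, and some wells with less had none either. The part of dividing cells in the Prox1 levels was not tested.

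Across neuroblast-like wells Prox1 ran with some genes and against others. The highest and lowest values below are extremes picked from many genes, and over few wells such extremes arise more readily by chance. Their size is therefore not compared with that in oligodendrocyte-like wells. Over 38 wells and 3888 genes, the highest Spearman's rho values were with Gria2 (0.62), an AMPA receptor subunit, Mtss1 (0.61), a membrane-bending protein of dendrites, Kcnk1 (0.59), a potassium channel, Hecw1 (0.59) and Calb2 (0.55). The lowest were with Hmgn2 (-0.61) and Hmgb2 (-0.54), chromatin proteins abundant in proliferating cells, and with Itpa (-0.55), Hint1 (-0.54) and Hypk (-0.52). Zbtb20, a hippocampal transcription factor, had 0.52, Neurod1 0.51 and Tac2 0.46. Eomes, which marks intermediate progenitors, had -0.29 and Sox4 -0.36. Of 16 granule neuron lineage genes compared, 12 were positive and 4 negative, with a median of 0.21, while the median over all genes compared was -0.02.

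These relations are descriptions without a test, because wells of a mouse are not independent replicates and mouse means differed. After centring by mouse, rho was 0.38 for Gria2, 0.39 for Calb2, 0.46 for Neurod1, -0.37 for Eomes and -0.38 for Hmgn2. Prox1 also ran with quality measures over the 38 wells. Its rho was -0.41 with the share of mitochondrial counts, -0.25 with the number of genes and 0.06 with the total count. Their part in the relations was not tested.

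**Figure D4:**
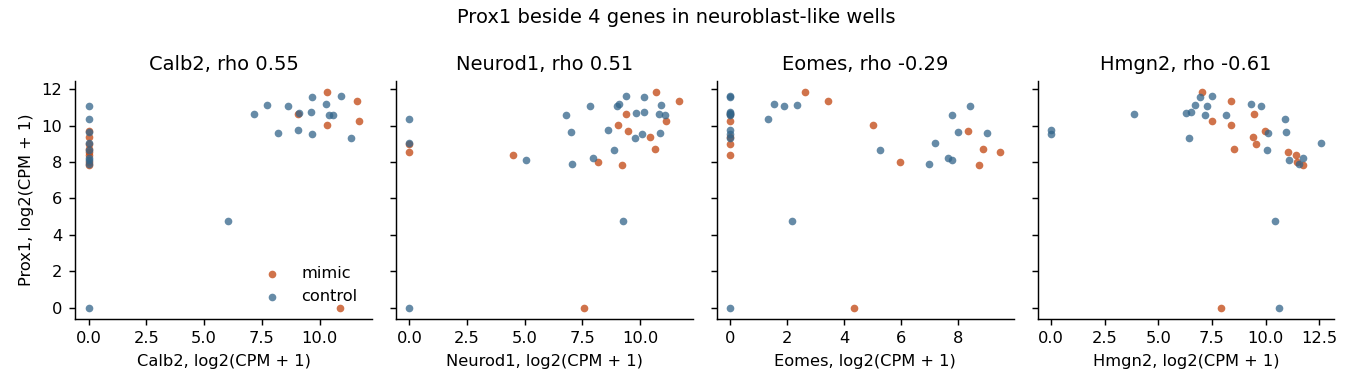
Prox1 against Calb2, Neurod1, Eomes and Hmgn2 in the 38 neuroblast-like wells, all as log2(CPM + 1), with mimic and control wells in colour and Spearman's rho above each panel. Prox1 is high over the wells with Calb2 (rho 0.55) and lower towards high Hmgn2 (rho -0.61), and the 2 wells without Prox1 lie on the bottom axis.

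The antisense gene Prox1os had a count in 7 of 38 neuroblast-like wells (18.4%) and in 57 of 301 oligodendrocyte-like wells (18.9%). It had a count in 1 astrocyte-like and 2 pericyte-like wells and in none of the precursor-like, endothelial-like and fibroblast-like wells. Its mean level over wells was 26.2 CPM in neuroblast-like and 33.3 CPM in oligodendrocyte-like wells. Prox1os counts were 4.60 ± 7.55% of Prox1 counts in neuroblast-like wells and 17.0 ± 10.5% in oligodendrocyte-like wells (SD, n = 8 mice each). The denominator of this share is the Prox1 level, which differed between the classes and for which the gene was chosen, so the share is a description given without a test. In neuroblast-like wells 4 of 8 mice had no Prox1os count. Within oligodendrocyte-like wells 39 had both genes, 18 had Prox1os alone, 166 had Prox1 alone and 78 had neither, and rho between the 2 genes was -0.02. Without strand, reads from the 133 shared bases cannot be given to either gene, and the sources used here do not give how such reads were counted. Gm28172 had a count in 3 neuroblast-like and 16 oligodendrocyte-like wells.

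Genes with the most similar profile over the 7 class means were found by Pearson's r on the log2(CPM + 1) scale among 13742 genes. They included Osbp2 (0.995), an oxysterol-binding protein, Vps26b (0.995), a retromer subunit, Enox1 (0.994) and Rhobtb3 (0.989). Nfix (0.988), a transcription factor of neural progenitors and their progeny, Ccnc (0.988), Thtpa (0.988), Txnl4a (0.987) and Frat1 (0.986) followed. The shapes agree more than the ranges do. Nfix averaged 1785 CPM in neuroblast-like, 208 CPM in oligodendrocyte-like and 8.02 CPM in endothelial-like wells, and Vps26b 151, 70.5 and 73.5 CPM in the same classes. With 7 points the ranking is a description only.

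Genes listed as partners or regulators of PROX1 had their highest means in differing classes. Of 24 listed from any tissue, 8 had their highest class mean in neuroblast-like wells, 5 in endothelial-like, 5 in pericyte-like and 1 in oligodendrocyte-like wells. The same shares over all genes were not taken, for this or any other list, so such counts only describe the lists. The neuroblast-like group held Hdac2 (276 CPM, against 27.7 CPM in oligodendrocyte-like wells) and Chd4 (274 and 59.5 CPM), subunits of repressor complexes. The basic helix-loop-helix gene Tcf4 (2980 and 305 CPM) was counted there too, but its own link to PROX1 was not checked. Tcf7l2, whose protein is also called TCF4, averaged 29.0 and 35.7 CPM and was listed among the lineage factors instead. Notch1, a receptor whose signalling has been reported to repress Prox1 in lymphatic endothelium, averaged 219 CPM in neuroblast-like, 14.9 CPM in oligodendrocyte-like and 1174 CPM in pericyte-like wells. Of 24 granule neuron lineage genes, 19 had their highest mean in neuroblast-like wells, and Neurod1, Dcx and Sox11 averaged under 0.05 CPM in oligodendrocyte-like wells. Several genes of this list, with Neurod1, Dcx and Sox11 among them, are markers that named the class. That count was therefore partly fixed in advance. Of 11 measured genes of interneurons from the caudal ganglionic eminence, 8 were highest in neuroblast-like wells. Among these, Gad1, Gad2, Dlx1, Dlx2 and Sp8 had a count in 2 of the 38 wells each.

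The main comparison asks whether the miR-132 mimic changed Prox1 within oligodendrocytes. In oligodendrocyte-like wells no change was detected. Summed per mouse, Prox1 was at 173, 259, 181 and 225 CPM in mimic mice 2, 4, 6 and 8, against 310, 205, 238 and 197 CPM in control mice 1, 3, 5 and 7. The groups overlapped, with control mouse 1 the highest and mimic mouse 2 the lowest. They averaged 209 ± 40.4 CPM in mimic mice and 237 ± 51.4 CPM in control mice (SD, n = 4 each). The log2 fold of mimic over control was -0.20 ± 0.20 (SE), with p = 0.347 and an adjusted p of 0.999 in edgeR's quasi-likelihood test over 7403 genes, with sort date as covariate.

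That fit called no gene. At an adjusted p under 0.05 edgeR called 0 of 7403 genes (0%), and 221 genes (2.99%) had an unadjusted p under 0.05. DESeq2 called 3 genes on the same counts. Within sort dates the log2 fold of Prox1 was -0.28 ± 0.32 (SE) on 17 April and -0.11 ± 0.27 on 19 April. Without control mouse 1 it was -0.05 and without mimic mouse 2 it was -0.09, and under the title map -0.18. Wells per mouse ranged from 28 to 43 in mimic mice and from 22 to 53 in control mice. The summed level of 6 microglia markers, whose median was 0, averaged 0.0191 CPM in oligodendrocyte-like wells of mimic mice and 231 CPM in those of control mice, and its part in the result was not tested.

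Detection was compared in the same way. A Prox1 count was found in 66.9 ± 6.23% of oligodendrocyte-like wells in mimic mice and in 67.6 ± 9.40% in control mice (SD, n = 4 each). The difference was -0.715 percentage points (exact permutation test over mice, two-sided, p = 0.914, with 0.0286 as the smallest p that 70 arrangements can give). It turned to 2.54 points without control mouse 1, and under the title map it was -1.71 points (exact p = 0.857). By date it was -3.07 points on 17 April and 1.64 points on 19 April.

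**Figure D5:**
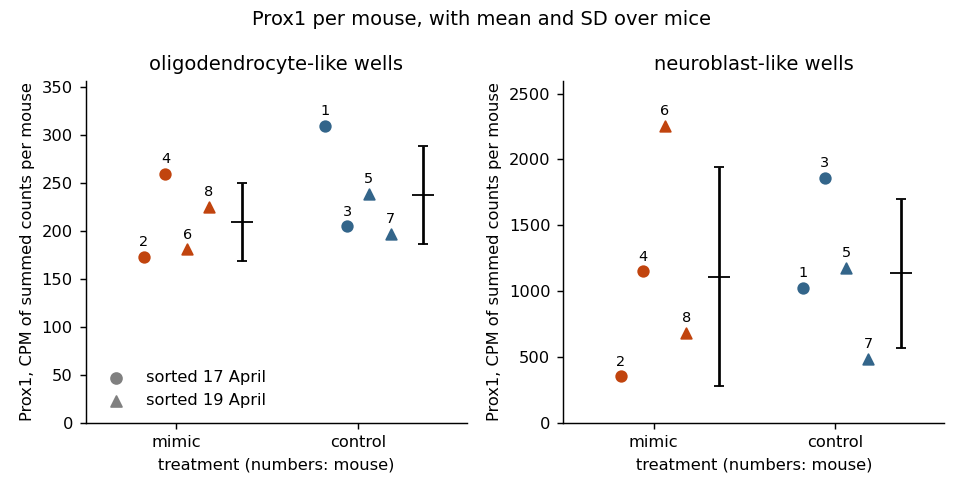
Prox1 as CPM of summed counts per mouse in oligodendrocyte-like (left) and neuroblast-like wells (right), with mimic mice left of control mice, sort dates by symbol, mouse numbers, and the mean and SD over 4 mice beside each group. The groups overlap in both panels, and the neuroblast-like values spread from 352 to 2256 CPM in mimic mice and from 486 to 1857 CPM in control mice.

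Lists of genes around Prox1 were read from the same fit, where none of their members passed the test. Of 12 tested oligodendrocyte lineage factors, 3 had a positive and 9 a negative fold, with a median log2 fold of -0.17, against 0.01 over all genes. Myrf had -0.29 ± 0.22 (SE), Olig1 -0.14 ± 0.11 and Sox10 -0.21 ± 0.22. The 16 myelin genes were split, with 8 positive and 8 negative folds and a median of 0.01. Gjc3, a connexin of oligodendrocytes, stood at 0.33 ± 0.16 and Mobp, a myelin protein, at 0.09 ± 0.09. Of 9 tested partners and regulators, 4 were positive and 5 negative (median -0.04), among them Hdac2 at 0.71 ± 0.54 and the Notch effector Rbpj at -1.02 ± 0.61. Of 5 tested granule neuron lineage genes 4 were positive and 1 negative (median 0.30), and no interneuron or lymphatic gene passed the low-count filter of that fit. All 12 tested immediate early genes had positive folds, with a median of 0.70, and edgeR called 0 of them. Over all genes 3748 of 7403 folds were positive. These genes varied together between the 2 oligodendrocyte-like clusters, so their signs are not 12 separate observations. Control mouse 7 had no well in the cluster where they were high, and its part in these folds was not tested. Dusp1, a MAP kinase phosphatase, stood at 0.93 ± 0.63 and the AP-1 subunit gene Fos at 0.69 ± 0.70.

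In neuroblast-like wells Prox1 varied several-fold between mice of a treatment. Summed per mouse, it was at 352, 1149, 2256 and 685 CPM in mimic mice 2, 4, 6 and 8, from 5, 3, 3 and 3 wells. In control mice 1, 3, 5 and 7 it was at 1022, 1857, 1173 and 486 CPM, from 9, 9, 4 and 2 wells. Both the highest and the lowest value were in mimic mice. They averaged 1111 ± 831 CPM in mimic mice and 1134 ± 565 CPM in control mice (SD, n = 4 each). The difference was -0.20 on the log2(CPM + 1) scale (exact permutation test over mice, two-sided, p = 0.743, smallest possible 0.0286).

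The sort dates pointed in opposite directions. The difference was -1.11 on 17 April and 0.72 on 19 April, and arrangements within dates gave an exact p of 0.778, with 0.0556 as the smallest they can give. Without mimic mouse 2 the difference was 0.25, without control mouse 3 it was 0.09, and under the title map 0.29. An edgeR fit across all genes in these wells, added after the data were seen, gave a log2 fold of -0.16 ± 0.65 (SE). It called 0 of 7847 genes (0%) at an adjusted p under 0.05, with 181 (2.31%) at an unadjusted p under 0.05, while DESeq2 called 15 genes higher and 67 lower in mimic mice. With 2 to 9 wells per mouse these values allow large changes in either direction. The share of wells with Mki67 differed between mice and was not taken into account. The treatment difference in neuroblast-like wells minus that in oligodendrocyte-like wells was -0.02 on the log2 scale (exact permutation test over mice, two-sided, p = 1).

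Precursor-like wells numbered 1 to 3 per mouse, and no test of treatment was run on them. A Prox1 count was found in 0 of 2, 0 of 3, 1 of 3 and 1 of 2 precursor-like wells of mimic mice 2, 4, 6 and 8. In control mice 1, 3, 5 and 7 it was found in 3 of 3, 0 of 1, 1 of 3 and 0 of 1 wells. Means over wells were 0, 0, 66.2 and 8.35 CPM in the mimic mice and 204, 0, 167 and 0 CPM in the control mice, and the groups overlapped.

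Summed over all single-cell wells of a mouse, Prox1 follows the class makeup as well as the level per cell. It was at 134, 197, 149 and 106 CPM in mimic mice 2, 4, 6 and 8, against 305, 328, 200 and 76.8 CPM in control mice 1, 3, 5 and 7. In such sums a change in the number of cells of a class and a change in RNA per cell cannot be told apart. Control mice 1 and 3, with the highest sums, gave 9 neuroblast-like wells each.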

How the data were processed

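Prox1 and the gene lists were chosen with earlier results of these data known. The authors deposited 1 table of raw read counts, whole numbers for each gene and well. The build mm10 and the tools STAR, featureCounts 1.5.1, Subread, Seurat 2.3.1 and FastQC are named in the submitters' processing notes, with no settings or annotation. Wells were given to mice through the labels' descriptions. Kept wells had 61342 to 1116180 counts. The 16 wells with over 6000 genes were set aside, a limit set after seeing the data, and no doublet caller was run. Leiden clusters (resolution 1, 2000 variable genes, 20 principal components, 15 neighbours, scanpy 1.11.5) were named from at least 3 markers, each found in at least 25% of wells. The mouse was the replicate. Counts summed per mouse over a class entered edgeR 4.0.16 (R 4.3.3, TMM, filterByExpr, a count in at least 10% of wells, sort date, Benjamini-Hochberg adjustment over all genes tested), and the steps were tested on simulated data. DESeq2 1.42.0 was an alternative. Single values were compared with exact permutation tests over mice. Per-mouse log values use a pseudocount of 1 CPM. Besides Prox1 and its antisense genes, the text names the 10 genes most like it over classes (1 of these is not reported here), the 5 highest and 5 lowest rho values (the lowest in neuroblast-like wells were added after the data were seen), and up to 6 members of each list by level or unadjusted p, with a few more list members chosen after their values were seen. Vip and Ccl21a of the lists are not used here.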

Additional observations from a re-analysis of the deposited data

Results flagged for a closer look

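Dixon's criterion was applied to 16 groups of 4 mice or more, of which chance picks out about 1 in 20, and 3 values stood apart. Among mimic mice, the share of neuroblast-like wells with a Prox1 count was 80% in mouse 2 and 100% in the other 3, which is 1 well of 5 without a count. Among control mice it was 75% in mouse 5 and 100% in the other 3, which is 1 well of 4, the well with the interneuron genes Gad1, Gad2 and Dlx1. In precursor-like wells of mimic mice, mouse 6 had a mean of 66.2 CPM, from 1 of 3 wells with a count, against 0, 0 and 8.35 CPM in mimic mice 2, 4 and 8. The first 2 values rest on a single well each, and the third on 3 wells. In the first 2 groups the other 3 mice were tied at 100%, where any lower share stands apart. The rate of 1 in 20 does not hold for such ties.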

How the results depend on the processing

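In oligodendrocyte-like wells the log2 fold of Prox1 stayed negative and short of the threshold in all 19 alternatives, from -0.30 to -0.05 without 1 mouse each and from -0.24 to -0.18 in the other 11. Genes called there were 0 in 17 alternatives, 3 with DESeq2 and 18 without the low-count filter. Leiden resolutions 0.5 and 2 returned the main fit unchanged, so they add no separate check to these counts. The share of oligodendrocyte-like wells with a count, mimic minus control, ran from -3.55 to 2.54 points without 1 mouse each and was 0.168 points when the many-gene wells were clustered with the rest. In neuroblast-like wells the log2 difference ran from -0.64 to 0.25 without 1 mouse each and was 0.29 with wells assigned by titles (exact p = 0.400). The difference between the 2 classes' treatment differences ran from -0.53 to 0.34 without 1 mouse each and was 0.44 by titles. None of these passed the threshold, and the cause of each turn was not tested. The comparison of the 2 oligodendrocyte-like clusters kept its direction in 14 alternatives, from -0.64 to -0.13. The value of -0.64 came from Leiden resolution 2, which split these wells into more clusters. There only the 2 largest, of 62 and 57 wells, were compared, over 6 mice. This comparison was not run with wells assigned by titles. Class means per mouse stayed at 1081 to 1146 CPM for neuroblast-like and 222 to 226 CPM for oligodendrocyte-like wells in 7 alternatives each, and the pericyte-like mean was 2.57 CPM with at most 15% mitochondrial counts. Both of the first 2 means were unchanged at Leiden resolutions 0.5 and 2. The neuroblast-like mean was also unchanged with at most 15% mitochondrial counts and with the many-gene wells included. A pseudocount of 10 has no effect on class means in CPM, and marker-level classes hold no clusters to compare, so neither was run. No paired analysis was possible because mouse numbers are not shared between the treatments. The number of neuroblast-like wells per mouse, from 2 to 9, limits the treatment comparison in that class.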

Other observations

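Prox1 was also present in the 16 wells that held over 6000 genes each. All 16 had a count, with 79.8 to 233 CPM. Summed over the 2 such wells of a mouse, it was at 135, 131, 189 and 184 CPM in mimic mice 2, 4, 6 and 8, against 197, 143, 115 and 165 CPM in control mice 1, 3, 5 and 7. Within a mouse these values were below the sum of the single-cell wells in control mice 1, 3 and 5 and in mimic mouse 4, and above it in control mouse 7 and in mimic mice 2, 6 and 8. The labels do not say what these wells held.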
